A study of Homo sapiens with 16 samples.

Results

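Mitosis and spindle genes were examined by RNA sequencing of HEK293 cells, which descend from human embryonic kidney cells and here overexpressed RNF43 or GFP. The 50 genes were taken by their GENCODE 29 names, out of 35075 genes in all, and each was measured as the sum of the estimated read counts of its transcripts. They comprise 12 genes of cyclins, CDK1, its activator CDC25C and mitotic and checkpoint kinases, 3 of anaphase-promoting complex (APC/C) partners, 3 of the chromosomal passenger complex, 7 of kinetochores and centromeres, 9 of kinesin motors, 6 of spindle assembly factors, 3 of cytokinesis, 6 of chromosome structure, and FOXM1. The rule used names alone, although the list was chosen with earlier results of these data known. All 50 passed the low-count filter and were tested. The 4 groups, of 4 libraries each, overexpressed the RNF43 frameshift mutant G659fs, the RNF43 frameshift mutant R117fs, wild-type RNF43 (WT) or a GFP control. RNF43 is a membrane-bound ubiquitin ligase that lowers Wnt signalling by clearing Frizzled receptors off the plasma membrane. The title of the series gives as its aim the reading of a variant's functional effect from the RNA profile it causes. No group was left without an overexpressed construct, and the vector, its promoter, the time after transfection and whether a group was 1 clone or several are not given in the sources used here. Nothing states that the 4 libraries of a group came from separate cultures, so the p-values cover only the differences between these libraries and may rest on technical spread.

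Cells make most of the proteins of mitosis only as they approach division. CDK1 with its B-type cyclins starts mitosis, kinesins and spindle assembly factors build the spindle, kinetochores attach chromosomes to it, a checkpoint holds the APC/C back until attachment is complete, and the cytokinesis proteins then split the cell. Many of these genes share a promoter in which a repressor element named the cell cycle genes homology region (CHR), read as TTTGAA or TTCGAA, lies near the start site downstream of CCAAT boxes. The DREAM complex occupies the CHR in resting cells, and MYBL2 and FOXM1 act there in dividing cells. In a culture of dividing cells such as HEK293 the RNA level of these genes reflects both how many cells are near mitosis and how much RNA each holds, and a bulk library cannot tell fewer such cells from less RNA per cell.

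The promoters of 42 of the 50 genes were in the RefSeq table (GRCh38.p14), as 50 windows of 300 bases that run from 250 bases before to 50 bases after a gene's start. AURKA, BIRC5, FOXM1, KNL1, RACGAP1, TPX2, TTK and UBE2C were not among them. The stretches of 130 bases below end just before the start of 5 genes whose values are given in full further on, and are shown because they hold the element that these genes share. Capitals mark TTTGAA and CCAAT in either orientation.
MKI67: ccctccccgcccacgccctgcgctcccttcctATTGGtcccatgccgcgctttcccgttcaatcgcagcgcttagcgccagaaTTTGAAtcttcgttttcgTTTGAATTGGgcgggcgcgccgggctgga
HMMR: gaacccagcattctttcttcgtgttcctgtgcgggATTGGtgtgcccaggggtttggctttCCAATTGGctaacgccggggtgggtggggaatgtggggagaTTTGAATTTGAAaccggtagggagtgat
CCNB2: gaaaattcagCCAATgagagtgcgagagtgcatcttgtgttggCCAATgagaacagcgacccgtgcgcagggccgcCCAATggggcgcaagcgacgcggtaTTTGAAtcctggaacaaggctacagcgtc
CDC25C: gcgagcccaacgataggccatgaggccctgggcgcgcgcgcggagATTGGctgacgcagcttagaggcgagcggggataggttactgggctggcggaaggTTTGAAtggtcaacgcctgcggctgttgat
PRC1: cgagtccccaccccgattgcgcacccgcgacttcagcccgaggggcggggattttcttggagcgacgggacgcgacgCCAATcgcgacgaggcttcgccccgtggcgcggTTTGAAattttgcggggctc
The MKI67 stretch is chr10:128126424-128126553, minus strand, that of HMMR chr5:163460502-163460631, plus strand, that of CCNB2 chr15:59105016-59105145, plus strand, that of CDC25C chr5:138331805-138331934, minus strand, and that of PRC1 chr15:90994536-90994665, minus strand. Those of CDC25C, HMMR and PRC1, and part of that of CCNB2, lie inside the gene's span in GENCODE 29, which begins farther upstream. In all 5 the TTTGAA nearest the start begins 20 to 30 bases before it, and the CCAAT boxes lie upstream of it, apart from 1 in MKI67 that overlaps it. The 5 were chosen for holding TTTGAA, and for each the window with it nearest upstream was used, so the choice favours such positions. Another CDC25C window holds TTTGAA after the start, and in TOP2A the nearest begins 151 bases before the start. Searched on both strands, TTTGAA was in 36 of the 50 windows (72.0%), against 15.161% of the 35116 windows of the whole table. CCAAT was in 35 of the 50 (70.0%, against 34.614%), both together in 27 (54.0%, against 5.903%), and TTCGAA in 2 (4.0%, against 1.447%). Where TTTGAA and CCAAT share bases, as at TTTGAATTGG in the MKI67 stretch, both were counted. These are matches of letters and not measured binding.

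The 50 genes spanned a wide range of levels in GFP cells, given here as TPM, which allows for transcript length. PRC1, which bundles the microtubules of the central spindle, had the highest level at 398 ± 31.6 TPM (SD, n = 4), and its distance to the next gene was larger than their SDs. SMC4, a condensin subunit, at 273 ± 39.00 TPM, AURKB at 241 ± 17.2, TOP2A, the topoisomerase that untangles sister chromatids, at 240.0 ± 13.97, CCNB1, cyclin B1, at 231 ± 20.4, and BIRC5, survivin, at 230.4 ± 27.8 followed without a gap larger than the SDs of neighbours. The lowest were KIF14 at 19.6 ± 2.53, SPC25 at 13.2 ± 4.24 and KIF15 at 11.2 ± 0.83 TPM. The estimated counts behind these values summed to between 29886062 and 44738520 per library in G659fs, 20364357 and 41161835 in R117fs, 32761360 and 46779570 in WT, and 25441077 and 30937321 in GFP.

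RNF43 itself was measured first as a check of the labels, in CPM (reads per 1000000 counted). It averaged 39391 ± 5415 in G659fs, 68441 ± 27519 in R117fs and 53346 ± 8058 in WT libraries, against 31.4 ± 15.4 in GFP libraries (SD, n = 4 each). R117fs libraries ran from 30191 CPM in replicate 1 to 94568.5 in replicate 3, and the part of RNF43 level in the results was not tested. R117fs replicate 4 stood apart from its group. Its log2 deviations from the rest of R117fs had an SD of 0.579 over all genes, where no other library exceeded 0.409 in its own group, and they rose with GC content (Spearman 0.80 over all genes and 0.95 over the 50, as descriptions). The 50 genes have a median GC content of 42.6%, against 49.5% over all 16787 genes tested, so counts and fold changes of R117fs are given with and without that library. Haematopoietic markers summed to between 6.93 and 14.3 CPM per library over 9 genes, with PTPRC at most 0.184 CPM and HBB at most 0.0307, and fibroblast markers to between 34.1 and 68.9 CPM over 8 genes, of which COL1A1 made up at most 63.0. The haematopoietic sum was 6.93 to 9.86 CPM in R117fs and 12.2 to 14.3 CPM in GFP libraries (2 of the 6 such genes tested fell), and its part in the results was not tested. The 13 mitochondrially encoded protein genes summed to between 12541 and 16801 CPM.

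Over all 50 genes R117fs was the lowest of the 4 groups. Their summed level averaged 7583 ± 108 CPM in G659fs, 6522 ± 618 in R117fs, 7708 ± 249 in WT and 7916 ± 694 in GFP libraries (SD, n = 4 each). The 4 R117fs libraries summed to 6685, 6788, 7000 and 5617 CPM, in the order of their replicate numbers, against 7228, 8400.0, 7418 and 8616 CPM in GFP. Every R117fs library lay below every GFP library. GFP libraries fell into a higher and a lower pair: 47 of the 50 genes lay above the mean of the rest of the group in replicate 2 and likewise 47 in replicate 4, against 3 in replicate 1 and 6 in replicate 3. The same replicate numbers were higher in WT, with 11, 43, 12 and 35 genes in replicates 1 to 4. R117fs had 35, 35, 44 and 10 and G659fs 24, 23, 33 and 16, without that split, and its cause was not tested. The median gene lay 0.27, 0.25, 0.18 and 0.52 below the GFP mean on the log2 scale in R117fs replicates 1 to 4, and 0.12 below it in the lowest GFP library. The spread of R117fs replicate 4 went with GC content: its 18 genes under 40% GC had a median of -0.96 against the GFP mean and its 10 genes at 50% or more -0.01, while the other 3 R117fs libraries ranged from -0.28 to -0.19 and from -0.31 to -0.18 in these classes.

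**Figure D1:**
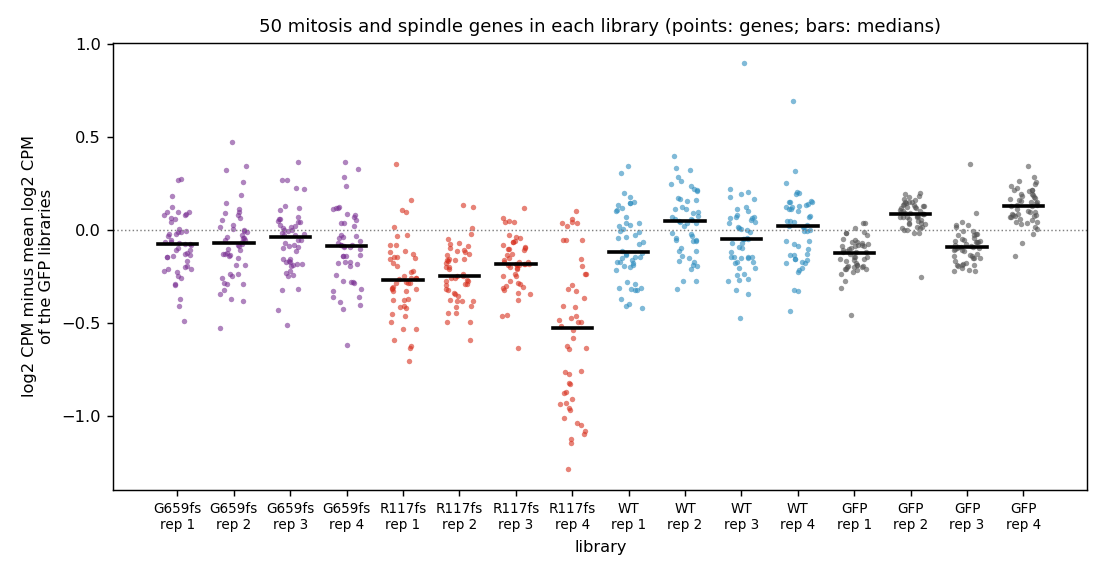
Level of the 50 mitosis and spindle genes in each of the 16 libraries as log2 CPM minus the mean log2 CPM of the 4 GFP libraries (y axis), by library (x axis). Each point is a gene and each bar the median of the library: all 4 R117fs medians lie below the lowest GFP median of -0.12, and R117fs replicate 4 lies lowest, at -0.52, with the widest scatter.

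Setting R117fs against GFP asks how cells with the early frameshift differ from cells with a control protein. In R117fs cells 25 of the 50 genes fell and 0 rose (edgeR adjusted p under 0.05; 37 fell and 0 rose at an unadjusted p under 0.05, and 30 and 0 with DESeq2), with a median log2 fold change of -0.24, where over all 16787 genes 15.6% changed (8.57% fell and 7.04% rose) and the median was -0.01. With DESeq2 9.92% of all genes fell and 9.75% rose. No share of all genes was taken at the unadjusted p, here or in the other comparisons. All 50 edgeR estimates were below 0 (47 without R117fs replicate 4), as were 51.43% of those of all genes. In 24 of the 50 every R117fs library was lower than every GFP library, against 9.19% of all genes. The largest falls were in CDC25C, KIF14, BUB1, DLGAP5, KIF18A, RACGAP1 and KNL1, and FOXM1, BIRC5, UBE2C, MAD2L1 and NCAPH were among the 25 genes that did not pass. Without R117fs replicate 4, 32 of the 50 fell and 0 rose (21.7% of all genes changed and 11.9% fell), these held all 25 above, and the median was -0.23. The count fell to 12 without GFP replicate 2 (5.62% of all genes then fell) and to 10 without GFP replicate 4 (4.84%), the higher pair of controls. When only the 8 libraries of these groups entered the fit it was 2, namely CDC25C and RACGAP1 (4.0% of the 50, where 2.29% of all genes fell), and it was 14 when R117fs replicate 4 was also left out (28.0%, against 7.51%).

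**Figure D2:**
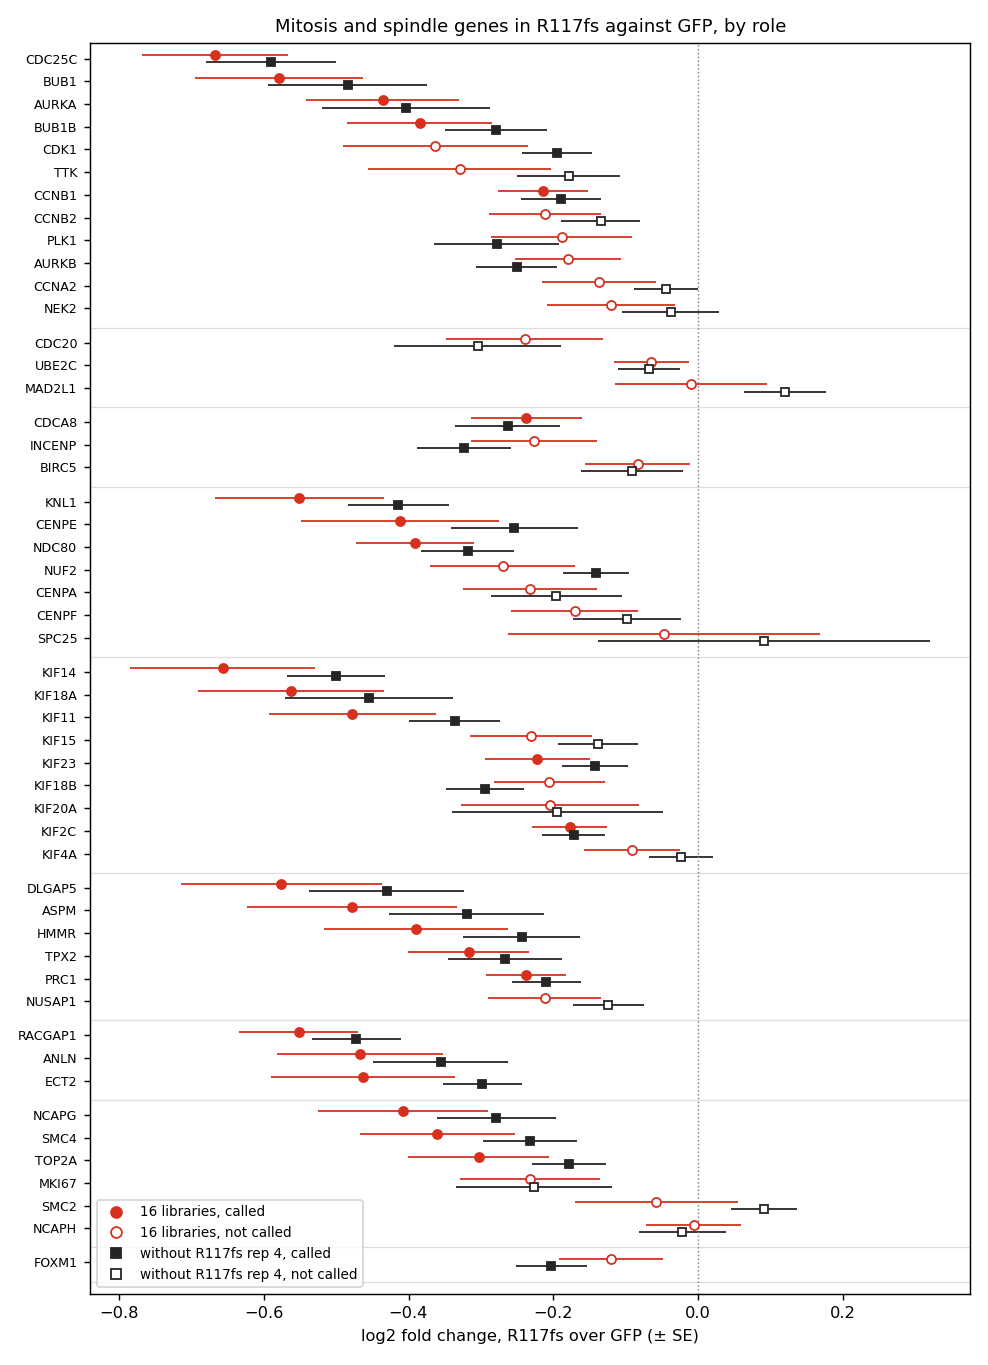
Log2 fold change of R117fs over GFP with its standard error (x axis) for each of the 50 genes (y axis), in blocks by role from cyclins and kinases at the top to FOXM1 at the bottom, from the fit of 16 libraries (circles) and without R117fs replicate 4 (squares); filled symbols passed an edgeR adjusted p of 0.05. All 50 circles lie below 0, 25 of them filled, and 32 squares are filled.

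Among the cyclins, CDK1, CDC25C and mitotic and checkpoint kinases, 5 of 12 fell in R117fs against GFP (median -0.27), and 8 of 12 without R117fs replicate 4. CDC25C, the phosphatase that activates CDK1 (ENSG00000158402; GRCh38 chromosome 5, 138285265 to 138338355, minus strand; its promoter stretch is shown above), had 23.4, 22.5, 21.8 and 17.7 CPM in R117fs libraries, against 29.3, 38.8, 29.7 and 38.7 CPM in GFP libraries. It fell by 0.67 ± 0.10 (log2 fold change ± SE; edgeR adjusted p = 0.000321), and by 0.59 without replicate 4, and the groups did not overlap. BUB1, the checkpoint kinase that also marks centromeric chromatin (ENSG00000169679; GRCh38 chromosome 2, 110637698 to 110678114, minus strand), had 80.6, 91.8, 99.2 and 66.8 CPM in R117fs, against 108, 142, 108 and 147 CPM in GFP, a fall of 0.58 ± 0.12 (edgeR adjusted p = 0.00296), or of 0.48 without replicate 4, and no overlap. Its paralogue BUB1B, the checkpoint protein BUBR1, had 64.3, 64.9, 71.03 and 47.3 CPM in R117fs and 73.8, 86.7, 74.9 and 88.3 CPM in GFP, again without overlap, and fell by 0.38 ± 0.10 (edgeR adjusted p = 0.0153), or by 0.28 without replicate 4. AURKA, the kinase of spindle poles, had 69.6, 82.2, 93.9 and 73.9 CPM in R117fs and 93.4, 120.4, 92.98 and 125 CPM in GFP. It fell by 0.44 ± 0.11 (edgeR adjusted p = 0.01), or by 0.40 without replicate 4, although R117fs replicate 3 reached the level of the lower GFP pair.

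CCNB1 had 152, 148, 166 and 144 CPM in R117fs, against 167, 186, 171 and 184 CPM in GFP, and fell by 0.21 ± 0.06 (edgeR adjusted p = 0.0264), or by 0.19 without replicate 4, with groups that met closely but did not overlap. CDK1, the kinase that cyclin B activates, had 133, 141, 144 and 77.2 CPM in R117fs and 147, 171, 159 and 161 CPM in GFP. Here replicate 4 was far below the other R117fs libraries, and although the groups did not overlap the estimate of -0.36 ± 0.13 did not pass (edgeR adjusted p = 0.0615). Without that library it was -0.20, which passed (edgeR adjusted p = 0.00763). PLK1, polo-like kinase, had 153, 147, 173 and 198 CPM in R117fs and 179.9, 209, 164 and 212 CPM in GFP, with overlap, and its estimate of -0.19 ± 0.10 did not pass (edgeR adjusted p = 0.2). Without replicate 4, in which PLK1 was highest, it was -0.28 (edgeR adjusted p = 0.0295). AURKB, the kinase of the passenger complex, likewise passed only without that library, at -0.25 (edgeR adjusted p = 0.00357), against -0.18 with it. TTK, CCNB2, CCNA2 and NEK2 passed in neither fit: TTK was at -0.33 with all libraries and -0.18 without replicate 4, CCNB2 at -0.21 and -0.13, CCNA2 at -0.14 and -0.04, and NEK2 at -0.12 and -0.04.

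**Figure D3:**
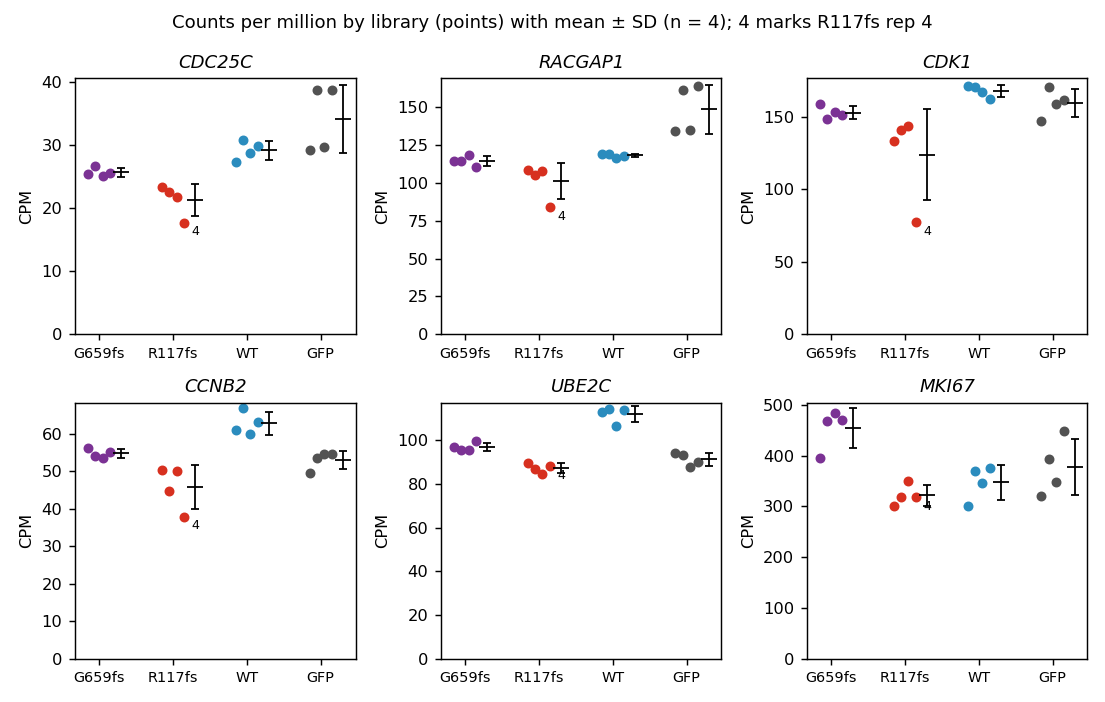
Level in CPM (y axes, from 0) of 6 of the genes by group (x axes), 1 point per library with the mean and SD of the 4 libraries beside it; the digit 4 marks R117fs replicate 4. R117fs libraries lie below all GFP libraries for CDC25C, RACGAP1 and CDK1 and below all WT libraries for CCNB2 and UBE2C, and G659fs libraries lie above all R117fs libraries for MKI67.

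Among the genes of APC/C partners and of the passenger complex, 1 of 6 fell, and 2 of 6 without replicate 4. Of CDC20, UBE2C and MAD2L1, 0 passed in R117fs against GFP by edgeR, with or without replicate 4, and 0 by DESeq2, while 1 of them, CDC20, had an unadjusted p under 0.05. CDC20, which carries substrates to the APC/C, had 99.7, 110.2, 135 and 135 CPM in R117fs and 129.7, 155, 121 and 161 CPM in GFP, with wide overlap (-0.24 ± 0.11; edgeR adjusted p = 0.144), and was at -0.30 without replicate 4. The estimate for MAD2L1, the checkpoint inhibitor of the APC/C, was -0.01 with all libraries and 0.12 without replicate 4, and with the GC trend removed it became 0.14 (edgeR adjusted p = 0.0259). The sign for MAD2L1 thus turns with that library and with GC content. BIRC5, a passenger subunit, had 251, 273, 301 and 281 CPM in R117fs and 270.1, 324, 265 and 312 CPM in GFP, with overlap (-0.08 ± 0.07; edgeR adjusted p = 0.471), and at -0.09 without replicate 4. UBE2C was at -0.06 with it and -0.07 without. CDCA8, borealin, fell by 0.24 ± 0.08 (edgeR adjusted p = 0.0424), or by 0.26 without replicate 4. INCENP, the scaffold of the complex, passed only without replicate 4, at -0.32, against -0.23 with it.

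At the kinetochore and centromere, 3 of 7 genes fell in R117fs against GFP (median -0.27), and 4 of 7 without replicate 4. KNL1, the kinetochore platform for BUB1, had 57.5, 56.1, 58.96 and 36.1 CPM in R117fs, against 67.04, 81.01, 73.01 and 85.5 CPM in GFP. It fell by 0.55 ± 0.12 (edgeR adjusted p = 0.00425) without overlap, and by 0.41 without replicate 4. NDC80, which binds microtubules, had 36.9, 39.4, 38.5 and 30.5 CPM in R117fs and 42.3, 51.9, 45.1 and 51.5 CPM in GFP, also without overlap, and fell by 0.39 ± 0.08 (edgeR adjusted p = 0.00383), or by 0.32 without replicate 4. CENPE, the kinetochore motor, had 92.1, 110.1, 109.6 and 59.99 CPM in R117fs and 108, 130.1, 114 and 143 CPM in GFP. The groups overlapped, as R117fs replicates 2 and 3 lay above GFP replicate 1, and the fall of 0.41 ± 0.14 was close to the threshold (edgeR adjusted p = 0.0492). Without replicate 4 CENPE fell by 0.25 (edgeR adjusted p = 0.048), and with the GC trend also removed it was at -0.23 and did not pass (edgeR adjusted p = 0.0583). CENPF, an outer kinetochore protein, had 289.9, 273, 298 and 231 CPM in R117fs and 267, 322, 300.3 and 340.0 CPM in GFP, with overlap, and did not pass (-0.17 ± 0.09; edgeR adjusted p = 0.2), nor did its -0.10 without replicate 4. NUF2, the partner of NDC80, passed only without replicate 4 (-0.14, against -0.27 with it), while the centromeric histone CENPA (-0.23, and -0.20 without it) and SPC25 (-0.05, and 0.09 without it, with the sign turned) passed in neither fit.

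Of the 9 kinesins, 5 fell in R117fs against GFP (median -0.22), and 6 without replicate 4. KIF14, a motor of the midbody (ENSG00000118193; GRCh38 chromosome 1, 200551497 to 200620734, minus strand), had 68.3, 70.1, 71.6 and 40.4 CPM in R117fs, against 85.2, 105, 94.9 and 111 CPM in GFP. It fell by 0.66 ± 0.13 (edgeR adjusted p = 0.00245) without overlap, and by 0.50 without replicate 4. KIF18A, which damps chromosome movements, had 30.8, 40.1, 40.5 and 25.6 CPM in R117fs and 41.5, 55.7, 45.2 and 60.1 CPM in GFP, and fell by 0.56 ± 0.13 (edgeR adjusted p = 0.00695) without overlap, or by 0.45 without replicate 4. KIF11, the Eg5 motor that drives spindle poles apart, had 141, 137, 137 and 86.4 CPM in R117fs and 156, 188, 159 and 196 CPM in GFP. It fell by 0.48 ± 0.11 (edgeR adjusted p = 0.00971), and by 0.34 without replicate 4, in which it was lowest. KIF23, a central spindle motor (log2 fold change -0.22 with all libraries and -0.14 without replicate 4), and KIF2C, a microtubule depolymerase (-0.18 and -0.17), also fell. KIF18B passed only without replicate 4, at -0.29, against -0.21 with it, and KIF15 (-0.23, and -0.14 without it), KIF20A (-0.20, and -0.19) and KIF4A (-0.09, and -0.02) passed in neither fit.

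Spindle assembly factors and cytokinesis genes had the highest shares of falls among the roles, at 5 of 6 (median -0.35) and 3 of 3 (median -0.47), and the same counts held without replicate 4. RACGAP1, a subunit of the central spindle complex (ENSG00000161800; GRCh38 chromosome 12, 49976923 to 50033136, minus strand), had 108, 105, 108 and 83.7 CPM in R117fs, against 134, 161, 135 and 164 CPM in GFP. It fell by 0.55 ± 0.08 (edgeR adjusted p = 0.000303), the smallest p of the 50, and by 0.47 without replicate 4, with no overlap. ECT2, the exchange factor that RACGAP1 brings to the cleavage furrow, had 106, 106, 103 and 59.4 CPM in R117fs and 120.0, 137, 124 and 137 CPM in GFP, and fell by 0.46 ± 0.13 (edgeR adjusted p = 0.0197), or by 0.30 without replicate 4 (edgeR adjusted p = 0.000709). ANLN, anillin, which links actin and septins in the contractile ring, had 102, 108, 122 and 76.8 CPM in R117fs and 122, 154, 126 and 162 CPM in GFP, and fell by 0.47 ± 0.11 (edgeR adjusted p = 0.0109), or by 0.36 without replicate 4. In both genes replicate 4 was lowest and R117fs stayed below GFP in every library.

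DLGAP5, which stabilises spindle fibres near chromosomes, had 65.6, 75.9, 81.1 and 44.7 CPM in R117fs, against 83.8, 109.8, 88.2 and 117 CPM in GFP, and fell by 0.58 ± 0.14 (edgeR adjusted p = 0.00994), or by 0.43 without replicate 4. PRC1 had 354, 369.5, 377 and 339 CPM in R117fs and 403, 439.7, 401 and 454 CPM in GFP, and its fall of 0.24 ± 0.06 was smaller but more even between libraries (edgeR adjusted p = 0.0078; 0.21 without replicate 4). TPX2, which activates AURKA on the spindle, had 236, 243, 254 and 211 CPM in R117fs and 265, 323, 256 and 333 CPM in GFP, and fell by 0.32 ± 0.08 (edgeR adjusted p = 0.0166), or by 0.27 without replicate 4. None of these 3 overlapped between the groups. ASPM, a spindle pole protein (log2 fold change -0.48 with all libraries and -0.32 without replicate 4), and HMMR, a microtubule-binding protein of the spindle (-0.39 and -0.24), also fell, and NUSAP1 (-0.21 and -0.12) passed in neither fit.

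Of the 6 genes of chromosome structure, TOP2A, SMC4 and NCAPG fell in R117fs against GFP (median -0.27). TOP2A had 747, 736, 701 and 487 CPM in R117fs and 760.2, 859, 811 and 867 CPM in GFP, without overlap, and fell by 0.30 ± 0.10 (edgeR adjusted p = 0.0414), or by 0.18 without replicate 4. SMC4 had 476, 519, 489 and 326 CPM in R117fs and 513, 629, 542 and 641 CPM in GFP, where R117fs replicate 2 exceeded GFP replicate 1, and fell by 0.36 ± 0.11 (edgeR adjusted p = 0.029), or by 0.23 without replicate 4. MKI67, the Ki-67 protein that coats mitotic chromosomes, had 301, 318, 349 and 318 CPM in R117fs and 321, 393, 348 and 448 CPM in GFP. The groups overlapped and the estimate of -0.23 ± 0.10 did not pass (edgeR adjusted p = 0.113), nor did the same value of -0.23 without replicate 4. NCAPG, a condensin subunit, fell by 0.41 ± 0.12 (edgeR adjusted p = 0.0247), or by 0.28 without replicate 4, while NCAPH (-0.01, and -0.02 without it) and SMC2 (-0.06, and 0.09 without it) did not pass. FOXM1, the transcription factor of many of these genes, had 192, 173, 174 and 223 CPM in R117fs and 199.7, 217, 198 and 213 CPM in GFP. Replicate 4 was its highest R117fs library, the estimate was -0.12 ± 0.07 (edgeR adjusted p = 0.27), and without that library it was -0.20 and passed (edgeR adjusted p = 0.00606).

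The fold changes of the 50 genes in R117fs against GFP went with GC content in the fit of all libraries (Spearman 0.45 over 50 genes of shared libraries, as a description) and hardly without R117fs replicate 4 (0.05). With all libraries, medians of R117fs over GFP were -0.40 in the 18 genes under 40% GC, -0.22 in the 11 from 40% to 45%, -0.23 in the 11 from 45% to 50% and -0.18 in the 10 at 50% or more. All genes of these classes had medians of -0.14, -0.07, -0.02 and 0.07. Without replicate 4 the 50 genes had medians of -0.25, -0.14, -0.21 and -0.26 in the same classes, and all genes were at -0.01, 0.01, 0.01 and -0.01. Of the 10 genes at 50% GC or more, 2 fell with all libraries and 7 without replicate 4. The share of all genes of that class that fell was not taken. Over all classes 8.57% of all genes fell with all libraries and 11.9% without replicate 4. With the GC trend of each library removed, 36 of the 50 fell and 1 rose, where 27.8% of all genes changed. In G659fs against R117fs the Spearman value over the 50 was -0.12 with all libraries and 0.40 without R117fs replicate 4 (all genes -0.19 and 0.14). For R117fs against WT it was 0.36 and -0.19. Both fits gave 0.35 in G659fs against GFP (all genes 0.10), 0.21 in G659fs against WT and 0.13 in WT against GFP.

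**Figure D4:**
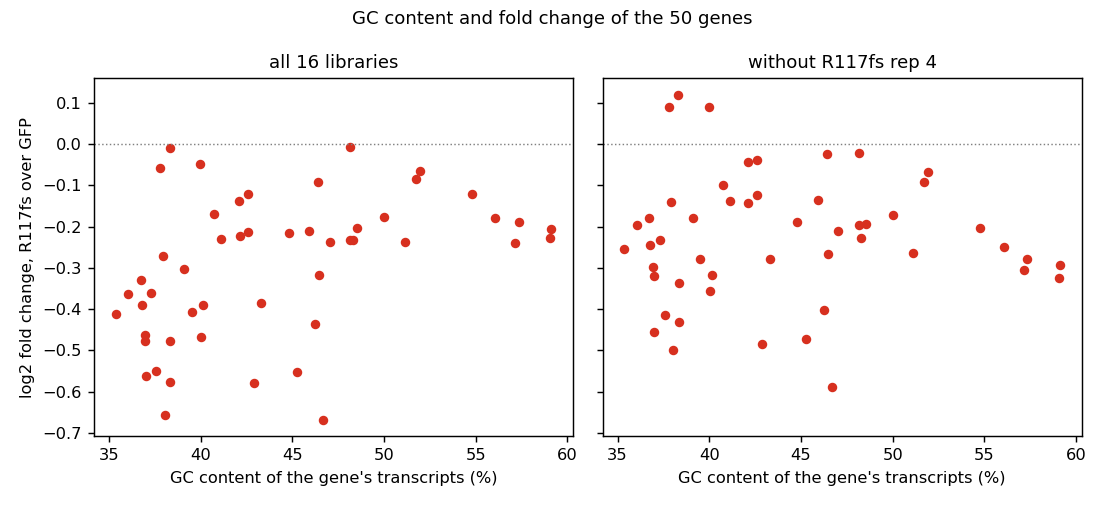
Log2 fold change of R117fs over GFP (y axis) against the GC content of the gene's transcripts in percent (x axis) for the 50 genes, with all 16 libraries (left) and without R117fs replicate 4 (right). Values rise with GC content on the left, from a median of -0.40 under 40% GC to -0.18 at 50% or more, and not on the right (Spearman 0.45 and 0.05).

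R117fs was also compared with wild-type RNF43, which sets the variant against its own wild type. In R117fs cells 15 of the 50 genes fell and 0 rose against WT by edgeR (35 and 0 at an unadjusted p under 0.05, and 19 and 0 with DESeq2), with a median of -0.28, where 8.11% of all genes changed (3.62% fell and 4.5% rose). With DESeq2 5.73% of all genes fell and 6.56% rose. In 24 of the 50 every R117fs library was lower than every WT library, against 8.32% of all genes. UBE2C, the ubiquitin-conjugating enzyme of the APC/C (ENSG00000175063; GRCh38 chromosome 20, 45812576 to 45816957, plus strand), had 89.7, 86.7, 84.8 and 88.2 CPM in R117fs, against 113, 114, 107 and 114 CPM in WT. It fell by 0.36 ± 0.05 (edgeR adjusted p = 0.000549), and by 0.36 without replicate 4, and all 4 R117fs libraries, replicate 4 included, lay close together. GFP libraries averaged 91.4 ± 2.89 CPM of UBE2C, nearer to the 87.3 ± 2.11 of R117fs than to the 112 ± 3.66 of WT (SD, n = 4 each). UBE2C and CCNB2 also rose in WT against GFP, as given below. CCNB2, cyclin B2 (ENSG00000157456; GRCh38 chromosome 15, 59105078 to 59125045, plus strand), had 50.3, 44.8, 50.3 and 37.96 CPM in R117fs and 61.1, 66.9, 60.1 and 63.2 CPM in WT, and fell by 0.45 ± 0.08 (edgeR adjusted p = 0.00223), or by 0.38 without replicate 4. Its GFP mean of 53.1 ± 2.38 CPM lay between those of R117fs (45.8 ± 5.85) and WT (62.8 ± 3.02). HMMR (ENSG00000072571; GRCh38 chromosome 5, 163460203 to 163491945, plus strand) had 75.98, 83.1, 83.8 and 49.1 CPM in R117fs and 106, 111, 109 and 109 CPM in WT, and fell by 0.57 ± 0.13 (edgeR adjusted p = 0.0119), or by 0.43 without replicate 4. In none of these genes did R117fs and WT libraries overlap, and the 4 WT libraries of HMMR lay close together.

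CCNB1 fell by 0.34 ± 0.06 (edgeR adjusted p = 0.00404; 0.31 without replicate 4), with 152, 148, 166 and 144 CPM in R117fs and 182, 209.8, 187 and 192 CPM in WT. NDC80 fell by 0.43 ± 0.08 (edgeR adjusted p = 0.00457; 0.36 without replicate 4), with 36.9, 39.4, 38.5 and 30.5 CPM in R117fs and 48.8, 50.02, 49.1 and 48.1 CPM in WT, and neither gene's groups overlapped. The other 10 were CDC25C, KIF23, NUSAP1, AURKA, CCNA2, KIF2C, CDK1, NUF2, KIF4A and TPX2. Of the 15, AURKA (-0.37, against -0.40 with it) and TPX2 (-0.23, against -0.28) did not pass without replicate 4, and CDK1 fell by 0.27 without it, against 0.44 with it. By role, 6 of 12 cyclin and kinase genes fell, 3 of 9 kinesins and 3 of 6 spindle assembly factors, and 0 of 3 cytokinesis genes by edgeR (3 at an unadjusted p under 0.05, and 1 with DESeq2), whose estimates were -0.39 for ECT2, -0.31 for ANLN and -0.22 for RACGAP1. Without replicate 4 these were -0.23, which passed (edgeR adjusted p = 0.012), -0.20 and -0.14. Without R117fs replicate 4 the count was 18, with a median of -0.20, where 9.48% of all genes changed and 4.79% fell. It was 8, 5, 7 and 6 without WT replicates 1, 2, 3 and 4, where 1.87%, 1.4%, 1.61% and 1.46% of all genes fell. With only the 8 libraries of R117fs and WT it was 1, UBE2C (2.0% of the 50, where 0.463% of all genes fell), and 17 when R117fs replicate 4 was also left out (34.0%, against 1.91%).

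The late truncation G659fs was set against the early one, R117fs. In G659fs cells 12 of the 50 genes rose and 0 fell against R117fs by edgeR (29 and 0 at an unadjusted p under 0.05, and 17 and 0 with DESeq2), with a median of 0.20, where 14.4% of all genes changed (6.35% rose and 8.02% fell). With DESeq2 8.68% of all genes rose and 10.14% fell. In 26 of the 50 every G659fs library was higher than every R117fs library, against 9.28% of all genes. MKI67 (ENSG00000148773; GRCh38 chromosome 10, 128096659 to 128126385, minus strand) had 396, 469, 483 and 471 CPM in G659fs, against the 301, 318, 349 and 318 CPM of R117fs. It rose by 0.50 ± 0.10 (edgeR adjusted p = 0.00251), and by 0.50 also without R117fs replicate 4, which lay inside its group. CENPA had 34.5, 36.3, 35.5 and 32.3 CPM in G659fs and 23.3, 27.7, 28.96 and 23.6 CPM in R117fs, and rose by 0.42 ± 0.09 (edgeR adjusted p = 0.00555), or by 0.39 without R117fs replicate 4. CENPF had 327, 339, 369.5 and 373 CPM in G659fs and 289.9, 273, 298 and 231 CPM in R117fs, and rose by 0.37 ± 0.09 (edgeR adjusted p = 0.00946), or by 0.30 without R117fs replicate 4. The groups did not overlap in any of these 3.

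KNL1, at 68.97, 70.04, 76.3 and 67.8 CPM in G659fs, rose by 0.44 ± 0.12 against R117fs (edgeR adjusted p = 0.0179) without overlap, or by 0.30 without R117fs replicate 4. KIF18B, a microtubule plus-end motor, had 140.5, 152, 146 and 152 CPM in G659fs and 122, 106, 114 and 144 CPM in R117fs, where replicate 4 reached the G659fs level, and rose by 0.28 ± 0.08 (edgeR adjusted p = 0.02), or by 0.37 without replicate 4. The other 7 were KIF20A, BUB1B, KIF14, ANLN, CCNB2, AURKA and ECT2. Without R117fs replicate 4, AURKA (0.31, against 0.34 with it) and KIF20A (0.42, against 0.43) did not pass, KIF14 rose by 0.27, against 0.43 with it, and ECT2 by 0.24, against 0.40. NEK2 was the gene that then fell, by 0.24. Without that library the count was 16 higher and 1 lower, with a median of 0.14, where 23.5% of all genes changed and 11.5% rose. The 12 became 7 without R117fs replicate 2 (4.4% of all genes then rose) or G659fs replicate 1 (4.54%). They became 4 without any of G659fs replicates 2, 3 and 4 (2.98%, 3.02% and 4.22%). With only the 8 libraries of these groups it was 3 (6.0% of the 50, where 1.48% of all genes rose), and with R117fs replicate 4 also left out 22 rose and 1 fell (9.69% of all genes then rose).

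Wild-type RNF43 and G659fs had medians near 0 against GFP in these genes. Both keep the RING domain of the ligase, whose part in the results was not tested. In WT cells 2 of the 50 genes rose and 3 fell against GFP, with a median of -0.03, where 21.5% of all genes changed (9.85% rose and 11.6% fell). UBE2C rose by 0.29 ± 0.05 (edgeR adjusted p = 0.000646), with 113, 114, 107 and 114 CPM in WT and 94.1, 93.4, 87.8 and 90.2 CPM in GFP. CCNB2 rose by 0.24 ± 0.08 (edgeR adjusted p = 0.0309), with 61.1, 66.9, 60.1 and 63.2 CPM in WT and 49.6, 53.6, 54.7 and 54.6 CPM in GFP. RACGAP1, at 119, 119, 116 and 118 CPM in WT, fell by 0.33 ± 0.08 (edgeR adjusted p = 0.00811). KIF18A, at 38.1, 41.4, 36.1 and 37.1 CPM in WT, fell by 0.41 ± 0.13 (edgeR adjusted p = 0.0292), and PRC1, at 369.6, 392, 377 and 381 CPM in WT, by 0.16 ± 0.06 (edgeR adjusted p = 0.047). In none of the 5 did WT and GFP libraries overlap. Over all genes every WT library was lower than every GFP library in 16.7% and higher in 17.1%. The count was sensitive to single libraries: it was 18, as 7 higher and 11 lower, without R117fs replicate 4, which belongs to neither group but widens the shared estimate of the spread (36.0% of all genes then changed). It was 2 or 3 without GFP replicate 2 or 4 or any 1 of the WT libraries (13.07% to 16.88% of all genes then changed).

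In G659fs cells 7 of the 50 genes fell and 0 rose against GFP by edgeR (10 and 2 at an unadjusted p under 0.05, and 7 and 1 with DESeq2), with a median of -0.07, where 25.4% of all genes changed (13.8% fell and 11.6% rose). With DESeq2 12.93% of all genes fell and 11.72% rose. RACGAP1 had 114, 114, 118 and 110.1 CPM in G659fs and fell by 0.38 ± 0.08 (edgeR adjusted p = 0.00281). KIF18A, at 35.7, 34.8, 35.2 and 32.7 CPM in G659fs, fell by 0.55 ± 0.13 (edgeR adjusted p = 0.0044), and CDC25C, at 25.4, 26.6, 25.1 and 25.5 CPM in G659fs, by 0.41 ± 0.10 (edgeR adjusted p = 0.00577). All 4 G659fs libraries lay below every GFP library for these 3, as they did for 18.8% of all genes. NDC80 fell by 0.26 ± 0.08 (edgeR adjusted p = 0.0257). NEK2, a kinase of the centrosome cycle, fell by 0.27 ± 0.09 (edgeR adjusted p = 0.0285), with 62.9, 61.5, 65.9 and 57.3 CPM in G659fs and 66.9, 81.8, 75.7 and 75.2 CPM in GFP. PRC1 (-0.16) and NCAPG (-0.34) completed the 7. The count was 19, as 3 higher and 16 lower, without R117fs replicate 4 (39.4% of all genes then changed), 3 without G659fs replicate 2 or 4 or GFP replicate 2, and 4 without GFP replicate 4. Where it was 3 or 4 with 1 library left out, 18.05% to 20.06% of all genes changed.

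Because the 3 RNF43 groups share the GFP libraries, their values are given side by side and no overlap is read from them. RACGAP1 averaged 114 ± 3.28 CPM in G659fs, 101 ± 11.7 in R117fs, 118 ± 1.09 in WT and 148 ± 16.2 in GFP libraries (SD, n = 4 each). KIF18A averaged 34.6 ± 1.33 CPM in G659fs, 34.2 ± 7.27 in R117fs, 38.2 ± 2.31 in WT and 50.6 ± 8.74 in GFP. PRC1 averaged 379 ± 6.97 CPM in G659fs, 359.9 ± 16.98 in R117fs, 380.0 ± 9.57 in WT and 424 ± 26.5 in GFP. CCNB2 and UBE2C followed another order, with the highest means in WT: CCNB2 averaged 54.8 ± 1.15 CPM in G659fs, 45.8 ± 5.85 in R117fs, 62.8 ± 3.02 in WT and 53.1 ± 2.38 in GFP. UBE2C averaged 96.98 ± 2.01 CPM in G659fs, 87.3 ± 2.11 in R117fs, 112 ± 3.66 in WT and 91.4 ± 2.89 in GFP. MKI67 had its highest mean in G659fs, at 455 ± 39.5 CPM, against 322 ± 19.9 in R117fs, 348 ± 34.4 in WT and 378 ± 55.8 in GFP.

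Between G659fs and WT, 1 of the 50 genes rose and 2 fell, with a median of -0.07, where 5.68% of all genes changed (2.32% rose and 3.35% fell). MKI67 rose by 0.39 ± 0.10 (edgeR adjusted p = 0.0287), with 396, 469, 483 and 471 CPM in G659fs and 300.1, 370.4, 345 and 375 CPM in WT. UBE2C fell by 0.21 ± 0.05 (edgeR adjusted p = 0.0269), with 96.9, 95.7, 95.4 and 99.8 CPM in G659fs and 113, 114, 107 and 114 CPM in WT. NDC80 fell by 0.30 ± 0.08 (edgeR adjusted p = 0.0393), with 40.8, 38.9, 41.8 and 38.2 CPM in G659fs and 48.8, 50.02, 49.1 and 48.1 CPM in WT. None of the 3 overlapped between the groups. Over all genes every G659fs library was lower than every WT library in 14.5% and higher in 12.3%. Without R117fs replicate 4 the count was 13, as 2 higher and 11 lower (20.7% of all genes then changed). It was 0 or 1 without any 1 of WT replicates 1, 3 and 4 or G659fs replicates 2, 3 and 4 (0.589% to 2.19%).

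**Figure D5:**
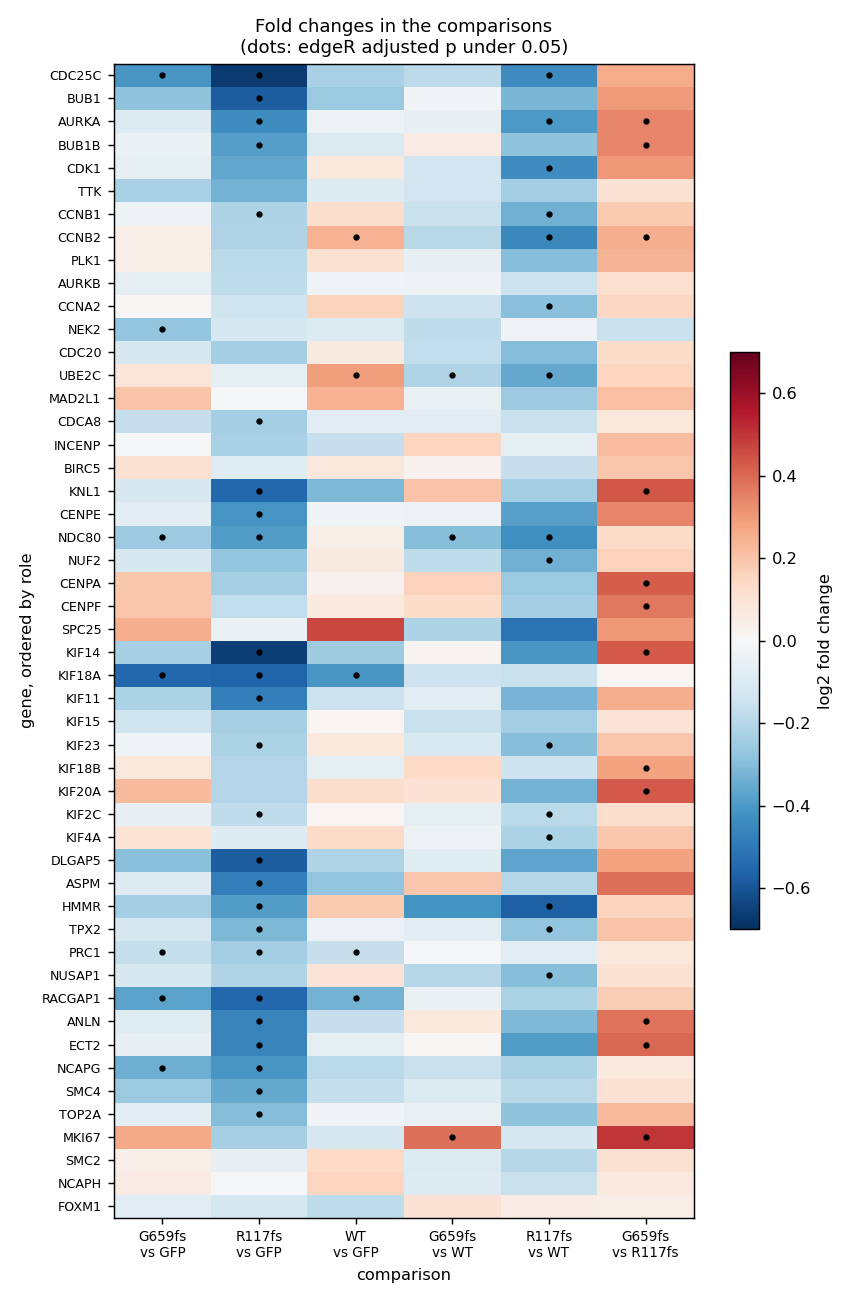
Log2 fold change (colour, red higher and blue lower in the first-named group) of the 50 genes, ordered by role (y axis), in the 6 comparisons (x axis), with a dot where the edgeR adjusted p was under 0.05. The columns of R117fs against GFP and against WT are mostly blue (25 and 15 dots), that of G659fs against R117fs mostly red (12 dots), and the other 3 are mixed, with 7, 5 and 3 dots.

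Other genes of the pathway, outside the 50, were counted in R117fs against GFP in the same way, beside the 8.57% of all genes that fell and the 7.04% that rose. Without R117fs replicate 4 these shares were 11.9% and 9.85%. Of 101 further genes of kinetochores, the APC/C, condensin and cohesin, spindles and mitotic kinases, 28 fell and 2 rose, with a median of -0.14, and without R117fs replicate 4, 33 fell and 5 rose, with a median of -0.07. The spindle, centrosome and cytokinesis genes among them had 10 of 29 that fell (13 without replicate 4), such as SPAG5, which fell by 0.29 ± 0.06 (edgeR adjusted p = 0.00225; 0.28 without replicate 4), and TACC3, a microtubule-binding partner of AURKA, which fell by 0.48 ± 0.10 (edgeR adjusted p = 0.00264; 0.55 without replicate 4). Among 15 regulators of cell cycle gene transcription 6 fell and 0 rose (median -0.20), and without replicate 4, 7 fell and 0 rose (median -0.18). They included LIN52, a DREAM subunit that fell by 0.36 ± 0.07 (edgeR adjusted p = 0.00172; 0.33 without replicate 4), and E2F7, a repressor of the E2F family that fell by 0.36 ± 0.07 (edgeR adjusted p = 0.00318; 0.29 without replicate 4). Of 33 genes of G1/S and DNA replication 3 fell and 1 rose (median -0.03), a share of falls near that of all genes, and without replicate 4, 7 fell and 3 rose (median -0.06). CCNE2, cyclin E2, fell by 0.54 ± 0.11 (edgeR adjusted p = 0.0031; 0.42 without replicate 4). Against WT, 8 of these 33 fell in R117fs and 0 rose (median -0.10), where 3.62% of all genes fell, and without replicate 4 likewise 8 fell and 0 rose (median -0.10), where 4.79% of all genes fell. CD68, listed as a haematopoietic marker, fell by 1.45 ± 0.14 (edgeR adjusted p = 6.17e-06; 1.40 without replicate 4) at no more than 5.18 CPM in any library.

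The promoter letters were set beside the falls in R117fs. Of the 33 genes with TTTGAA in a window, 17 fell in R117fs against GFP, with a median of -0.24, and of the 9 without it 4 fell, with a median of -0.18. Of the 32 genes with CCAAT 14 fell (median -0.23), and of the 10 without it 7 (median -0.37). Without R117fs replicate 4 the medians were -0.24 with TTTGAA and -0.19 without, and -0.22 with CCAAT and -0.24 without. These are descriptions of the genes in the table and carry no test.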

How the data were processed

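RNA sequencing libraries of 4 groups with 4 libraries each were analysed. Transcript abundances were estimated by kallisto 0.45.1 (build GRCh38), per the submitters' processing notes. The deposited files hold, per the file headers, an estimated count and a TPM value for each of 178136 transcripts, with transcript and effective lengths. The annotation release, read length and strand setting are not given in the sources used here, so reads of overlapping antisense genes cannot be told apart. Transcripts were matched by identifier to GENCODE 29 (91.2% matched; the rest held 1.904% to 2.216% of a library's counts and were left out), and estimated counts were summed over 35075 genes and rounded. TPM values as deposited by the authors were summed per gene for levels.

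edgeR 4.0.16 in R 4.3.3 (TMM, filterByExpr, robust dispersions, glmQLFit, glmQLFTest) was fitted once to the 16 libraries, with group as the only factor. Benjamini-Hochberg adjustment of p-values ran over all 16787 tested genes, and a gene was called at an adjusted p under 0.05. The scripts were tested on simulated data. Standard errors were derived from each fold change and its F statistic. CPM are scaled after TMM and log2 CPM use a prior count of 2. The estimated counts are not a sample of independent molecules, and the totals per library set their precision. GC content is the mean over a gene's transcripts, weighted by their counts, and promoter windows are from RefSeq (GRCh38.p14).

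Alternatives were DESeq2 1.42.0, its size factors, no low-count filter, an effective length offset, the GC trend of each library removed by loess (span 0.3), only the 2 groups compared, the replicate number as a block, limma 3.58.1 voom with quality weights, and each library left out. Fits with the GC trend removed and with only 2 groups, both without R117fs replicate 4, were added after seeing the data. The 50 genes, the other lists and the tests were chosen with earlier results of these data known. Values in every library were given for 16 regulators and representatives of each role and for the 10 further genes with the smallest p in R117fs against GFP. In the other comparisons up to 5 called genes with the smallest p were described, and from the other lists up to 6 called in R117fs against GFP. Counts of the most alike libraries within a group gave a chi-square of 3.36 per degree of freedom, so none was taken as a duplicate.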

Additional observations from a re-analysis of the deposited data

Results flagged for a closer look

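In the 4 libraries of each group, 208 groups of values (the 50 genes, their summed level and RNF43) were searched for a library whose distance to the nearest of the others exceeded Dixon's 95% critical value as a share of the group's range, which chance gives in about 1 of 20 groups. It was found in 16, of which 14 were R117fs replicate 4 as the lowest of its group. In CPM these were 77.2 for CDK1 (the next lowest R117fs library was at 133), 82.2 for CCNA2 (109), 114 for MAD2L1 (173), 43.0 for NUF2 (64.3), 36.1 for KNL1 (56.1), 86.4 for KIF11 (137), 40.4 for KIF14 (68.3), and 18.9 for KIF15 (24.99). They were also 68.9 for KIF23 (86.9), 130.4 for NUSAP1 (167), 59.4 for ECT2 (103), 83.7 for RACGAP1 (105), 98.2 for NCAPG (149) and 78.5 for SMC2 (126). The part of GC content in these values was not tested gene by gene. UBE2C was lowest in WT replicate 3, at 106.6 CPM, with the next WT library at 113. MKI67 was lowest in G659fs replicate 1, at 396 CPM, with the next G659fs library at 469, and all 4 exceeded every R117fs and WT library.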

How the results depend on the processing

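The medians of the 50 genes kept their direction in R117fs against GFP, R117fs against WT and G659fs against R117fs when any 1 library was left out (-0.29 to -0.20, -0.32 to -0.20 and 0.14 to 0.23), while counts moved. With 1 library left out they ranged from 10 to 32 in R117fs against GFP, 5 to 18 in R117fs against WT, 4 to 17 in G659fs against R117fs, 3 to 19 in G659fs against GFP, 2 to 18 in WT against GFP and 0 to 13 in G659fs against WT. The shares of all genes called moved too, over 8.56% to 21.7%, 3.69% to 15.4% and 7.79% to 23.5% in the first 3. In the last 3 they ran over 18.05% to 39.4%, 13.07% to 35.96% and 0.589% to 20.7%. In the order R117fs against GFP, R117fs against WT, G659fs against R117fs, G659fs against GFP, WT against GFP and G659fs against WT, the counts of 25, 15, 12, 7, 5 and 3 became 37, 27, 26, 16, 20 and 9 with the GC trend removed, where 27.8%, 17.7%, 29.1%, 40.5%, 38.0% and 20.03% of all genes were called, and 36, 32, 26, 25, 26 and 21 with voom quality weights, where 30.4%, 29.9%, 41.1%, 47.4%, 42.8% and 35.9% were. With only the 2 groups compared they became 2, 1, 3, 16, 13 and 23 (all genes 3.67%, 0.938%, 4.86%, 43.1%, 36.3% and 28.5%), and without the low-count filter 17, 9, 9, 4, 3 and 1 (7.74%, 3.74%, 6.78%, 13.7%, 10.96% and 2.14%). In 2 further fits chosen after seeing the data, removal of the GC trend without R117fs replicate 4 gave 31, 19, 22, 17, 18 and 9 (all genes 24.4%, 11.7%, 25.3%, 41.2%, 38.5% and 21.3%), and only 2 groups without that library gave 14, 17 and 23 in the first 3 (13.4%, 4.18% and 21.0%). With the GC trend removed, with or without that library, shares in G659fs against GFP (16 and 17 genes) were below those of all genes. Shares in G659fs against WT (9 and 9) and in WT against GFP (20 and 18) were near those of all genes. Whether the replicate numbers pair the libraries was not settled. Among 24 same-numbered pairs 5 had a correlation over 0.1, and 9 of 16 libraries correlated best with their own number out of 4. With the replicate block the counts were 27, 20, 13, 7, 6 and 3 (all genes 17.3%, 10.97%, 16.3%, 27.2%, 23.5% and 8.0%), and under the block plus removal of the GC trend 41, 31, 31, 18, 20 and 12 (30.9%, 22.3%, 33.0%, 43.6%, 41.4% and 24.3%). Against GFP in R117fs, MAD2L1 reversed to 0.14 once the GC trend was removed (0.15 under the block as well), and SMC2 to 0.10 with both. The causes were not tested. Under every alternative run, CDC25C and RACGAP1 stayed called in R117fs against GFP, UBE2C in R117fs against WT, CENPA, CENPF and MKI67 in G659fs against R117fs, CDC25C, KIF18A and RACGAP1 in G659fs against GFP, RACGAP1 and UBE2C in WT against GFP, and 0 in G659fs against WT. Depth was 20364357 to 46779570 counts per library, and SPC25, with 13.2 TPM in GFP, had the widest standard error of the 50 in R117fs against GFP, 0.22.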
